A study of Mus musculus with 14 samples.

Results

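Selenoproteins are the proteins that carry selenocysteine, an amino acid with selenium in place of the sulfur of cysteine, and 10 of their genes are described here in lactating mouse mammary tissue. The genes were chosen by name, as *Selenop*, *Selenof*, *Selenok*, *Selenom*, *Selenow*, *Selenot*, *Gpx1*, *Gpx3*, *Gpx4* and *Txnrd1*, and not by a threshold on their values, although earlier results of these data were known. All 10 were found among the 20550 genes listed for each mouse. Total RNA was sequenced from mammary glands of 2 mice on day 10 of lactation (L10), heterozygous for the Wap-Tbrg4 allele (genotype wt/Wap-Tbrg4, WT_wTbrg4 in the labels). That allele was made by CRISPR-Cas9 in C57BL/6 mice as a deletion that fuses the first exons of the milk protein gene *Wap* and its neighbor *Tbrg4*, so that *Tbrg4* comes under the super-enhancer and promoter of *Wap*. The label, and the study where it shows these RNA-seq data, give the other allele as wild type. The study also made compound heterozygotes in which the second allele keeps *Tbrg4* while its *Wap* is not expressed. A separate label, delE_wTbrg4, occurs among the ChIP-seq samples, and no RNA-seq sample carries it. The names of the deposited tables abbreviate the genotype in another way than the labels, and the labels were followed. Both mice share this genotype and stage, and the age of the mice is not given in the sources used here. No other group enters, so no test between groups was possible, and 2 values against 2 could not reach 0.05 in an exact permutation test. Each gene is therefore given by its value in each mouse, and the 2 samples, called replicate 1 and replicate 2, are taken as 2 mice.

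Selenocysteine is encoded by the codon UGA, which otherwise stops translation. The ribosome reads it as selenocysteine when the mRNA carries a hairpin, the SECIS element, behind the coding sequence, and when the factors SECISBP2 and EEFSEC deliver the selenocysteine tRNA. Most selenoproteins are redox enzymes. Glutathione peroxidases reduce peroxides, thioredoxin reductases keep thioredoxin reduced, and several smaller selenoproteins reside in the endoplasmic reticulum (ER), where secretory cells fold their products. Selenoprotein P, the product of *Selenop*, is secreted and carries selenium between organs, and milk delivers selenium to the newborn.

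The in-frame UGA is the feature that makes these genes a family, so its surroundings are shown for each of them. The lines give the first in-frame TGA of the coding sequence in capitals, with up to 12 bases on either side, 5′ to 3′ on the coding strand, from RefSeq transcripts on GRCm38, the assembly that UCSC calls mm10. The *Selenok* and *Txnrd1* lines are shorter because they end with the stop codon.
Selenop: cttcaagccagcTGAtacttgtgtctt
Gpx3: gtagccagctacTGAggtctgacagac
Gpx1: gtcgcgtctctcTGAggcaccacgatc
Gpx4: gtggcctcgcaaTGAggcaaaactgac
Txnrd1: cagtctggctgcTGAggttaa
Selenof: gaagtctgcggaTGAaaattggggagg
Selenom: acctgtggaggaTGAcagttgaatcgc
Selenot: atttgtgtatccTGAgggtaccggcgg
Selenow: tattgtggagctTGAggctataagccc
Selenok: atggctggtggaTGAggaaggtaa
The base after the TGA was G in 7 of the 10 genes, while *Selenop*, *Selenof* and *Selenom* had another base. A cysteine codon (TGT or TGC) stood within the 4 codons before the TGA in 5 genes, namely *Txnrd1*, *Selenof*, *Selenom*, *Selenot* and *Selenow*. These are features of the reference, and no sample is measured by them.

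The genes differed in where the TGA lies. *Selenop* had 10 in-frame TGA codons among 380 codons, the first at codon 59 and the other 9 in the last exon, up to codon 377. Each of the other genes had 1. It lay early in *Selenow* (codon 13 of 88), *Gpx1* (47 of 201), *Selenom* (48 of 145), *Selenot* (49 of 195), *Gpx3* (73 of 226) and *Gpx4* (73 of 197), further on in *Selenof* (93 of 162), and next to the end in *Selenok* (92 of 94) and *Txnrd1* (498 of 499). In 8 genes the first TGA lay at least 50 nt before the last exon junction, the position at which a stop codon can mark an mRNA for decay when selenocysteine is not inserted. The distance ranged from 78 nt in *Selenof* to 470 nt in *Selenot*. In *Selenok* the TGA lay 5 nt before the last junction, and in *Txnrd1* it lay in the last exon.

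**Figure D1:**
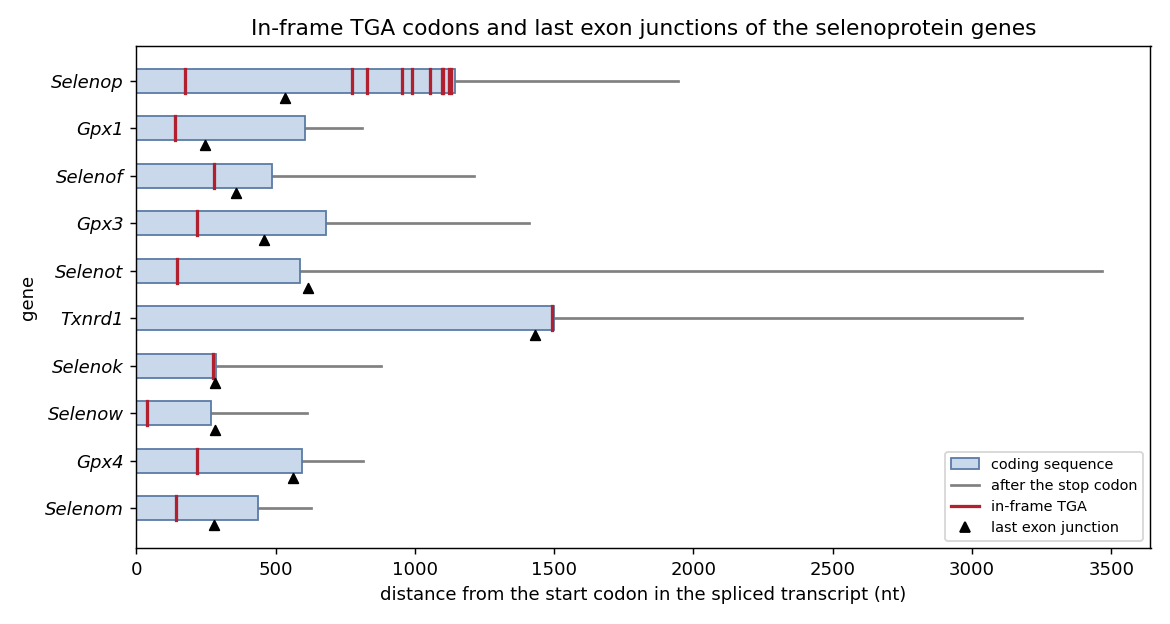
In-frame TGA codons (red) in the coding sequence (blue bar) of the RefSeq transcript of each gene, with the last exon junction (triangle) and the stretch after the stop codon (grey line), against the distance from the start codon in nt. *Selenop* holds 10 in-frame TGA codons, 9 of them behind the last junction, and *Txnrd1* holds its single one there.

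The deposited values are FPKM (fragments per kilobase of exon or of intron, scaled by library), given with 1 decimal, so that levels of genes of different length can be set side by side. FPKM is not corrected for GC content, which ran along with the difference between the mice as given below. The exons of the members span 38.9% to 60.8% GC, and the part of GC content in their order was not tested. Low FPKM of short exons and introns mostly fell on whole steps, which gave an estimate of what 1 fragment is worth and put about 11950000 exon fragments behind replicate 1 and 11230000 behind replicate 2. At a tolerance of 0.15 of a step, 18 of 22 such values were whole multiples in replicate 1 and 73 of 91 in replicate 2. The step was chosen to fit these same values, so these counts are no independent check of it. In replicate 1 only 3 of the 22 values came from exons. Fragment numbers given here are estimates from these steps and from RefSeq lengths, and the 95% exact Poisson intervals made from them cover counting error only. Between the mice the exon intervals did not overlap for 8 of the 10 members. The share of all genes whose intervals did not overlap was not computed, so this is not read as a trait of the members. The milk protein and epithelial genes *Csn2*, *Csn1s1*, *Lalba*, *Wap*, *Krt8*, *Krt18*, *Epcam* and *Elf5* were all above 10 FPKM in both mice, and their sum was 338491 in replicate 1 and 875733 in replicate 2. Of these 8 genes, 4 were more than 2-fold apart, with *Csn2* (4.44-fold) and *Csn1s1* (3.13-fold) higher and *Krt8* and *Krt18* lower in replicate 2. At the engineered locus, *Wap* had 172935 and 234774 exon FPKM and 121.6 and 148.1 intron FPKM in replicates 1 and 2. By the study's description the deletion takes out *Wap* behind its first exon, so the intron signal of *Wap* comes from the other allele. *Tbrg4* had 314.7 and 291.5 exon FPKM, which does not tell its alleles apart. Summed exon FPKM of marker genes in replicates 1 and 2 was 1326 and 1156 over 6 adipocyte genes, 83.7 and 42 over 5 macrophage genes, 162 and 147 over 5 fibroblast genes, 46.1 and 40.1 over 3 endothelial genes, 113 and 71.3 over 5 myoepithelial genes, 456 and 600 over 3 plasma cell genes (of which *Xbp1*, also used by secretory epithelium, was higher and the other 2 lower in replicate 2), 271 and 295 over 2 erythroid genes, and 3.0 and 3.7 over 3 lymphocyte genes. The myoepithelial gene *Acta2* was listed at 0 in both mice while *Myh11* was at 69.2 and 38.8. In whole tissue, fewer cells of a type and less RNA per cell cannot be told apart.

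The 10 genes spanned a range of exon levels from 2.7 to 1461 FPKM. In order of mean exon FPKM they were *Selenop*, *Gpx1*, *Selenof*, *Gpx3*, *Selenot*, *Txnrd1*, *Selenok*, *Selenow*, *Gpx4* and *Selenom*. The leading 3 averaged at least 100, compared with 1.02% of all 20515 genes with a usable symbol, and 8 averaged at least 10, compared with 15.2%. The values of neighbors in this order did not overlap between *Selenop*, *Gpx1*, *Selenof* and *Gpx3*, nor between *Selenow*, *Gpx4* and *Selenom*. Between *Gpx3* and *Selenow* each gene overlapped with the next. *Selenot* was below *Txnrd1* in replicate 1 and above it in replicate 2, and *Txnrd1* stood above *Selenok* and *Selenok* below *Selenow* in replicate 1 only. *Gpx3* was above *Txnrd1*, *Selenok* and *Selenow* without overlap, and so were *Selenot* and *Txnrd1* above *Selenow*. *Selenot* was above *Selenok* within each mouse, although their ranges over the 2 mice overlapped. The places of *Txnrd1* relative to *Selenot* and *Selenok*, and of *Selenok* relative to *Selenow*, were not resolved by 2 mice.

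**Figure D2:**
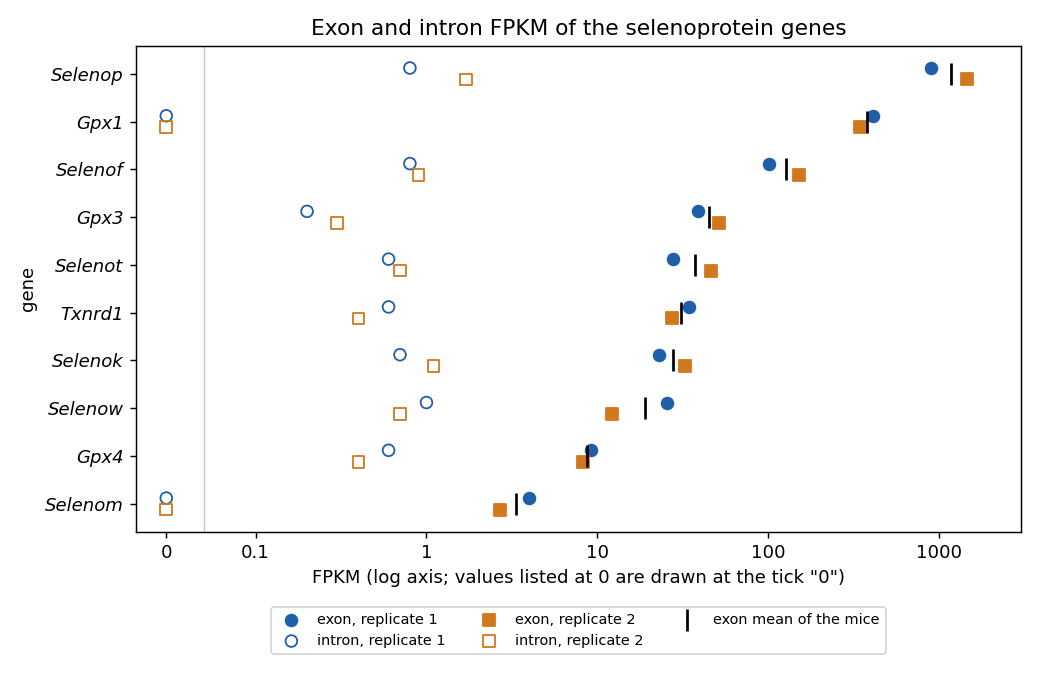
Exon FPKM (filled) and intron FPKM (open) of the 10 genes in replicate 1 (circles) and replicate 2 (squares) on a log axis, with the exon mean of the mice as a vertical tick and values listed at 0 drawn at the tick "0". *Selenop* lies at 900.5 and 1461 in exons, *Selenom* at 4.0 and 2.7, and no intron value exceeds 1.7.

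The secreted selenoproteins come first. *Selenop* lies on chr15:3270767-3280510, plus strand. Exons had 900.5 FPKM in replicate 1 and 1461 in replicate 2, which averages 1181 ± 397 (SD, n = 2), from about 19874 and 16391 fragments. The value was 1.62-fold higher in replicate 2, and the counting intervals of 888 to 913 and of 1439 to 1484 did not overlap. *Selenop* ranked 19th by mean exon FPKM among the 20515 genes. It made up 57.1% of the summed exon FPKM of the 10 genes in replicate 1 and 68.3% in replicate 2. Weighted by the number of in-frame TGA codons in each coding sequence, its share of selenocysteine codons was 93.0% and 95.6%. *Gpx1* followed with 4.26% and 2.26%, and every other gene had at most 1.05%. These are shares of codons in mRNA, and translation was not measured. The gene *Ccdc152* overlaps the end of *Selenop* on the opposite strand and was listed at 0 in both mice.

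*Gpx3* encodes the glutathione peroxidase of plasma, which is also secreted, and lies on chr11:54902854-54910387, plus strand. Exons had 38.8 FPKM in replicate 1 and 51.6 in replicate 2, which averages 45.2 ± 9.05 (SD, n = 2), at rank 557. It was 1.33-fold higher in replicate 2. *Selenop* was above *Gpx3* by far more than the spread between the mice.

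Of the peroxidases that stay in the cell, *Gpx1* encodes the main cytosolic enzyme and lies on chr9:108339080-108340342, plus strand. Exons had 412.5 FPKM in replicate 1 and 345.3 in replicate 2, which averages 379 ± 47.5 (SD, n = 2), at rank 55. *Selenop* exceeded it 2.18-fold and 4.23-fold in the 2 mice. *Gpx4* encodes the peroxidase that reduces lipid hydroperoxides in membranes and lies on chr10:80047166-80056439, plus strand. Its exons had 9.2 and 8.2 FPKM, averaging 8.70 ± 0.707 (SD, n = 2), at rank 3523, with counting intervals of 7.70 to 10.9 and of 6.30 to 10.6 that overlapped. *Gpx1* was thus above *Gpx4* in both mice without overlap. The genome holds 2 other places that match at least 50% of the *Gpx4* coding sequence at an identity of at least 95%. Stretches of at least 50 bp at that identity, anywhere else in the genome, cover 88.1% of its transcript. *Gpx1* and *Gpx3* had no such place or stretch. The collapsed exons of *Gpx4* in RefSeq come to 1465 bp, compared with 882 bp in the transcript used here. How the authors treated reads that map to several places is not given in the sources used here, and the part of copies and of collapsed length in the low level of *Gpx4* was not tested.

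*Txnrd1* encodes the cytosolic thioredoxin reductase and lies on chr10:82833951-82897724, plus strand. Exons had 34.5 FPKM in replicate 1 and 27.5 in replicate 2, which averages 31.0 ± 4.95 (SD, n = 2), at rank 893. Its substrate *Txn1*, thioredoxin, had 72.4 and 89.0, although 1 other place in the genome matches its coding sequence by the same definition. The mitochondrial reductase *Txnrd2* was at 1.9 and 2.0 and the reductase *Txnrd3*, known mainly from testis, at 2.1 and 1.6, so that *Txnrd1* was the highest of the reductases in both mice.

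The ER selenoproteins ranged widely. *Selenof*, which binds the glycoprotein folding sensor UGGT, lies on chr3:144570427-144597677, plus strand. It had an exon FPKM of 101.3 in replicate 1 and 152.4 in replicate 2 (mean 127 ± 36.1, SD, n = 2), at rank 164. *Selenot*, a thioredoxin-like protein of the ER membrane on chr3:58576636-58593544, plus strand, had 27.8 and 46.6 (mean 37.2 ± 13.3, SD, n = 2), at rank 718. *Selenok*, a small ER membrane protein linked to degradation of misfolded proteins, lies on chr14:29968380-29975074, plus strand, and had 22.9 and 32.4 (mean 27.6 ± 6.72, SD, n = 2), at rank 1023. All 3 were higher in replicate 2, by 1.41-fold to 1.68-fold, and so were 78.0% of all genes between 38% and 46% GC, the range that holds them. Their counting intervals did not overlap between the mice, and the share over all genes was not computed. *Selenok* has 5 other places in the genome that match its coding sequence by the definition above, and *Selenot* has none. Stretches elsewhere of the length and identity given above cover 71.8% of the *Selenok* transcript and 31.0% of the *Selenot* transcript.

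*Selenom*, an ER protein with a thioredoxin-like fold on chr11:3514684-3517351, plus strand, was the lowest of the 10 genes. Exons had 4.0 FPKM in replicate 1 and 2.7 in replicate 2, which averages 3.35 ± 0.919 (SD, n = 2), at rank 6704. These values rest on about 35 and 12 fragments, and the counting intervals of 2.75 to 5.50 and of 1.38 to 4.66 overlapped, so a difference between the mice was not detectable at this depth. *Selenof* was above *Selenom* in both mice without overlap. No copy of *Selenom* was found in the genome.

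*Selenow*, a small cytosolic protein that is abundant in muscle and brain, lies on chr7:15917208-15922371, minus strand. Exons had 25.6 FPKM in replicate 1 and 12.2 in replicate 2, which averages 18.9 ± 9.48 (SD, n = 2), at rank 1612. It was the single member more than 2-fold apart between the mice on the log2(FPKM + 1) scale, with replicate 1 higher 2.10-fold in FPKM. About 180 and 43 fragments stood behind the values, and their counting intervals of 22.0 to 29.7 and of 8.73 to 16.2 did not overlap.

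Intron reads stand for RNA that has not been spliced. Intron FPKM of the 10 genes was low throughout. *Selenop* had 0.8 in replicate 1 and 1.7 in replicate 2, *Selenof* had 0.8 and 0.9, *Selenok* had 0.7 and 1.1, and *Selenot* had 0.6 and 0.7. *Selenow* had 1.0 and 0.7, *Txnrd1* and *Gpx4* each had 0.6 and 0.4, and *Gpx3* had 0.2 and 0.3. Between the mice, the intron counting intervals did not overlap for *Selenop* and *Txnrd1* and overlapped for the other genes named here. These intervals cover counting error only, and their overlap over all genes was not computed. *Selenop*, the highest in exons, had a mean intron FPKM of 1.25 ± 0.636 (SD, n = 2), compared with 0.850 ± 0.0707 for *Selenof* and 0.850 ± 0.212 for *Selenow*, so that the ranges of the intron values of *Selenop* and *Selenof* overlapped although their exon values did not.

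*Gpx1* and *Selenom* were listed at 0 in introns in both mice. The *Gpx1* introns come to only 218 bp, where a count of 0 allows up to 1.38 FPKM in replicate 1 and 2.72 in replicate 2 (3 fragments in each library). The *Selenom* introns come to 1778 bp, and the same limits are 0.170 and 0.334 FPKM. An intron level like that of the other genes was therefore not detectable for *Gpx1* at this depth.

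The ratio of exon to intron FPKM was given for the 8 genes with intron values above 0. It was 1126 in replicate 1 and 860 in replicate 2 for *Selenop* (mean 993 ± 188, SD, n = 2). Rounding of the deposited values to 1 decimal allows 1059 to 1201 and 835 to 886 for these ratios. Counting error comes on top and is wider. The *Selenop* introns rest on about 60 and 65 fragments, with counting intervals of 0.611 to 1.03 and of 1.32 to 2.18 FPKM. A difference in this ratio between the mice was not tested. The mean *Selenop* ratio lay above that of 99.8% of the 3020 genes that averaged at least 10 FPKM in exons and had introns above 0 in both mice. *Gpx3* had a ratio of 183 ± 15.6 (SD, n = 2) and *Selenof* of 148 ± 30.2, above 96.9% and 95.4% of these genes. *Gpx3* rests on about 12 and 9 intron fragments, and rounding alone allows from 155 to 259 in replicate 1.

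The other 5 genes were lower. *Txnrd1* had a ratio of 63.1 ± 7.95, *Selenot* of 56.5 ± 14.3, *Selenok* of 31.1 ± 2.30, *Selenow* of 21.5 ± 5.78 and *Gpx4* of 17.9 ± 3.65 (SD, n = 2 in each). The median of the 8 genes was 59.8, compared with 28.9 in the 3020 genes. *Gpx4*, at a mean of 8.70 exon FPKM, is in the first median although it falls below the limit of 10 for the second. Without *Selenok* and *Gpx4*, which have copies in the genome, the median of the remaining 6 was 106. *Selenow* has no copy by this definition and was still below the median of all genes in both mice, at 25.6 and 17.4. The ratio of *Selenop* was above that of every other member in both mice.

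**Figure D3:**
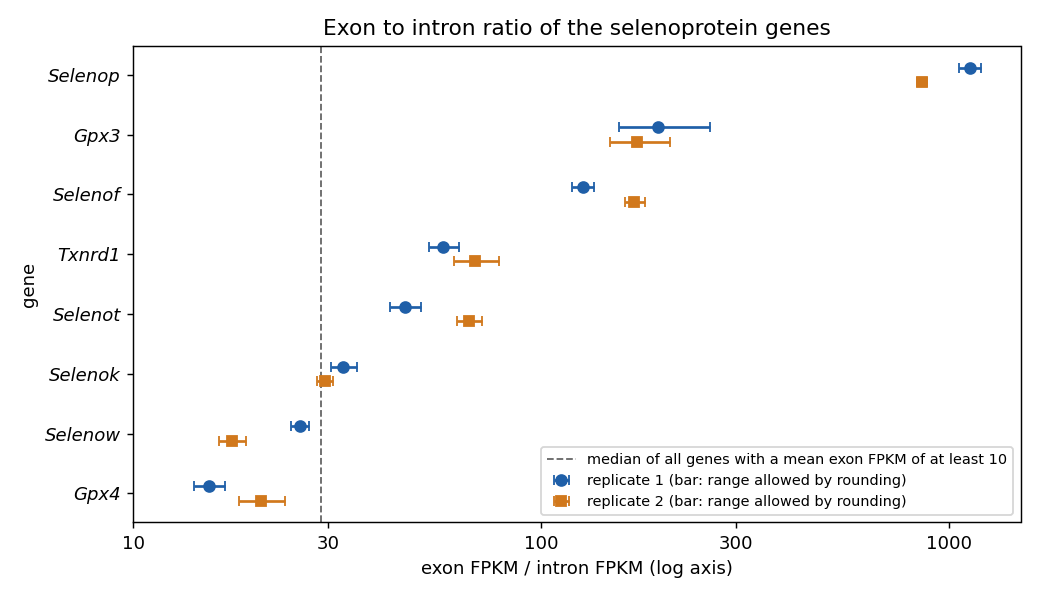
Ratio of exon to intron FPKM on a log axis for the 8 genes with intron values above 0, in replicate 1 (circles) and replicate 2 (squares). Bars span the range that rounding to 1 decimal allows and leave out counting error. The dashed line is the median of 28.9 over genes averaging at least 10 exon FPKM with introns above 0, which *Selenow* and *Gpx4* stay below and *Selenop* exceeds at 1126 and 860. *Gpx4* itself averages 8.70 exon FPKM, below that limit.

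The difference between the mice was not the same for all 10 genes. On the log2(FPKM + 1) scale, 5 genes were higher in replicate 2, compared with 42.5% of the 9845 genes that averaged at least 1 exon FPKM, and 5 were lower, compared with 55.4%. One of the 10 (*Selenow*, with a log2 ratio of replicate 2 to replicate 1 of -1.01) was more than 2-fold apart, compared with 5.9% of all these genes, and it no longer was when ratios were centred on the median of all genes (-0.93). *Selenot* (0.72), *Selenop* (0.70), *Selenof* (0.58), *Selenok* (0.48) and *Gpx3* (0.40) were higher in replicate 2. *Gpx4* (-0.15), *Gpx1* (-0.26), *Txnrd1* (-0.32) and *Selenom* (-0.43) were lower. The median log2 ratio was 0.13 over the 10 genes and -0.08 over all 9845.

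This direction ran along with the GC content of the exons. *Selenot*, *Selenok*, *Selenop* and *Selenof*, with 38.9% to 44.6% GC, were higher in replicate 2, and so were 78.0% of the 2544 genes between 38% and 46% GC. *Txnrd1*, *Selenow*, *Gpx1*, *Selenom* and *Gpx4*, with 51.5% to 60.8%, were lower, and of the 4251 genes between 51% and 61% GC only 17.9% were higher. *Gpx3*, with 55.7%, was the exception, since it was higher in replicate 2. Spearman's rho between GC content and log2 ratio was -0.66 across 9725 genes and -0.75 across the 10, which share the same 2 libraries. After a lowess fit on GC content was removed, 8 of the 10 genes were higher in replicate 2, compared with 41.1% of the 9725 genes, with *Gpx3* at 0.75 and *Gpx4* at 0.57 the highest. None of the 10 was then more than 2-fold apart, compared with 1.98% of these genes. *Selenow* kept its sign at -0.53 and *Txnrd1* at -0.25. When each mouse was instead scaled to the same exon FPKM sum, all 10 were lower in replicate 2, and the median of all genes moved to -0.90. Of the 8 secretory epithelial markers, 4 were higher and 4 lower in replicate 2, and their sum was higher, led by *Csn2*. The plasma cell and erythroid sums were also higher, although the globin gene *Hba-a2*, outside the list, was lower (log2 ratio -1.16). The lymphocyte sum was mostly *Ptprc* (3.0 and 3.2), with *Cd3e* and *Cd79a* at 0.4 or less in both mice, and gives no direction. The adipocyte, macrophage, fibroblast, endothelial and myoepithelial sums were lower, at the values above. Within several of these lists genes went both ways, and the part of these cell types in the differences was not tested. *Selenow* and *Txnrd1* were lower in replicate 2 under each scaling and correction tried. *Gpx1*, *Gpx4* and *Selenom* were lower under each scaling and turned only with the GC correction. The 5 genes that were higher turned only with the equal exon FPKM sum.

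**Figure D4:**
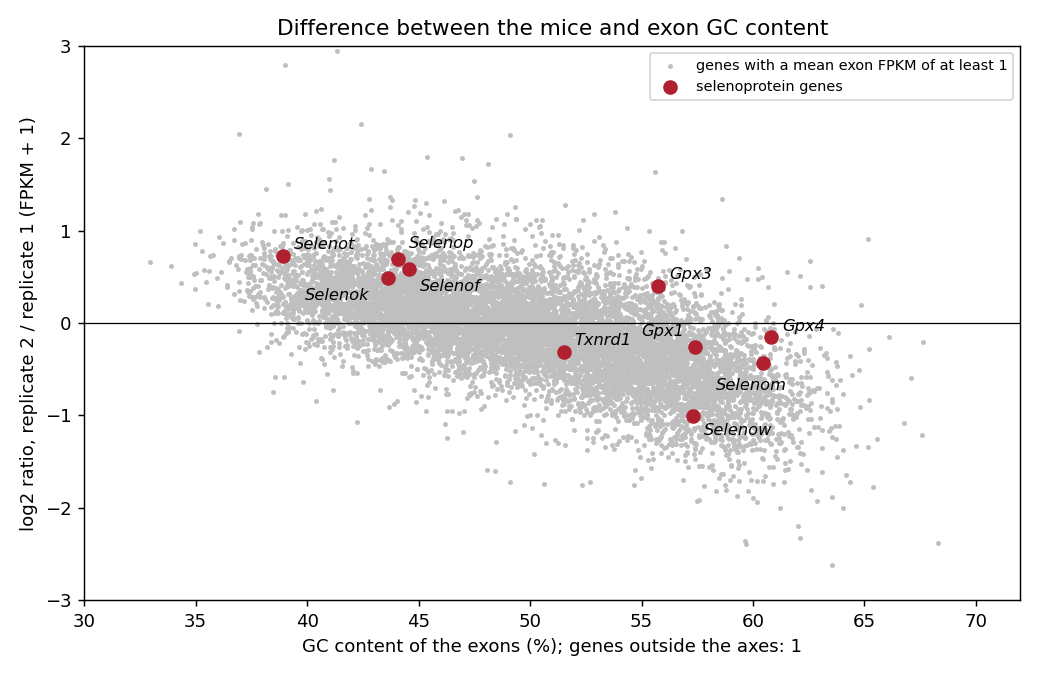
Log2 ratio of replicate 2 to replicate 1 of exon FPKM + 1 against the GC content of the exons in percent, for genes averaging at least 1 exon FPKM (grey) and the 10 selenoprotein genes (red). *Selenot* at 38.9% GC has a ratio of 0.72 and *Selenow* at 57.3% of -1.01, and *Gpx3* lies above 0 among GC-rich genes.

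The rest of the family was taken from a list of 14 further mouse selenoprotein genes. Of these, 12 were found in the tables, and *Dio3* and *Sephs2* were not listed there, so they have no value here. Each of these 2 has 1 exon and no intron in the RefSeq transcript used here. Whether such genes were left out of the tables was not tested, and their absence is not a measure of expression. An average of at least 1 exon FPKM was reached by 8 of the 12, compared with 48% of all genes. *Msrb1*, which repairs oxidized methionine, had 184.2 in replicate 1 and 166.4 in replicate 2. It was the third highest of the 22 selenoprotein genes found, between *Gpx1* and *Selenof*. *Selenos*, an ER membrane protein that works with *Selenok*, had 61.8 and 60.1. *Selenoo*, a mitochondrial enzyme, had 14.8 and 15.5, and *Selenoh*, a nuclear protein, had 6.8 and 4.3. *Selenoi*, an enzyme of phospholipid synthesis, had 4.2 and 5.4, and *Selenon*, an ER protein known from muscle disease, had 2.0 in both mice. The thyroid hormone deiodinases *Dio1* and *Dio2* were each at 0.2 and 0.1. *Gpx2*, the peroxidase of the gut, and *Selenov*, known from testis, were listed at 0 in both mice, and *Gpx2* has 1 copy in the genome by the definition above. The 10 genes described here held 85.0% and 89.3% of the summed exon FPKM of all 22 selenoprotein genes in the tables, and these 22 together made up 0.218% and 0.134% of the exon FPKM of the 2 libraries.

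The genes of selenocysteine synthesis, insertion and uptake differed widely in level. Of 13 listed genes, 12 averaged at least 1 exon FPKM, compared with 48% of all genes, and 1, *Secisbp2l*, averaged at least 100. *Secisbp2*, the factor that binds the SECIS element, had 6.6 in replicate 1 and 4.9 in replicate 2, and its relative *Secisbp2l* had 151.3 and 162.4. *Eefsec*, the elongation factor for selenocysteine tRNA, had 1.9 and 1.5. The enzymes that make this tRNA, *Sepsecs* (5.3 and 3.9) and *Pstk* (4.2 and 4.3), stood near *Sephs1* (3.3 and 3.9), a relative of the selenophosphate synthetase *Sephs2*. *Trnau1ap*, which associates with the tRNA, had 11.2 and 10.1, and *Scly*, which releases selenium from selenocysteine, had 10.7 and 6.9. Of the receptors that take up selenoprotein P, *Lrp8* had 1.8 and 1.3, and *Lrp2* was listed at 0 in both mice. *Eif4a3* (19.1 and 16.3), *Ncl* (11.1 and 10.0) and *Rpl30* (21.2 and 19.7) can bind SECIS elements beside other roles, and *Eif4a3* and *Rpl30* have 3 and 13 copies in the genome. Of the 12 genes at or above 1 FPKM, 9 were lower in replicate 2, compared with 55.4% of all genes, and none was more than 2-fold apart, compared with 5.9%.

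**Figure D5:**
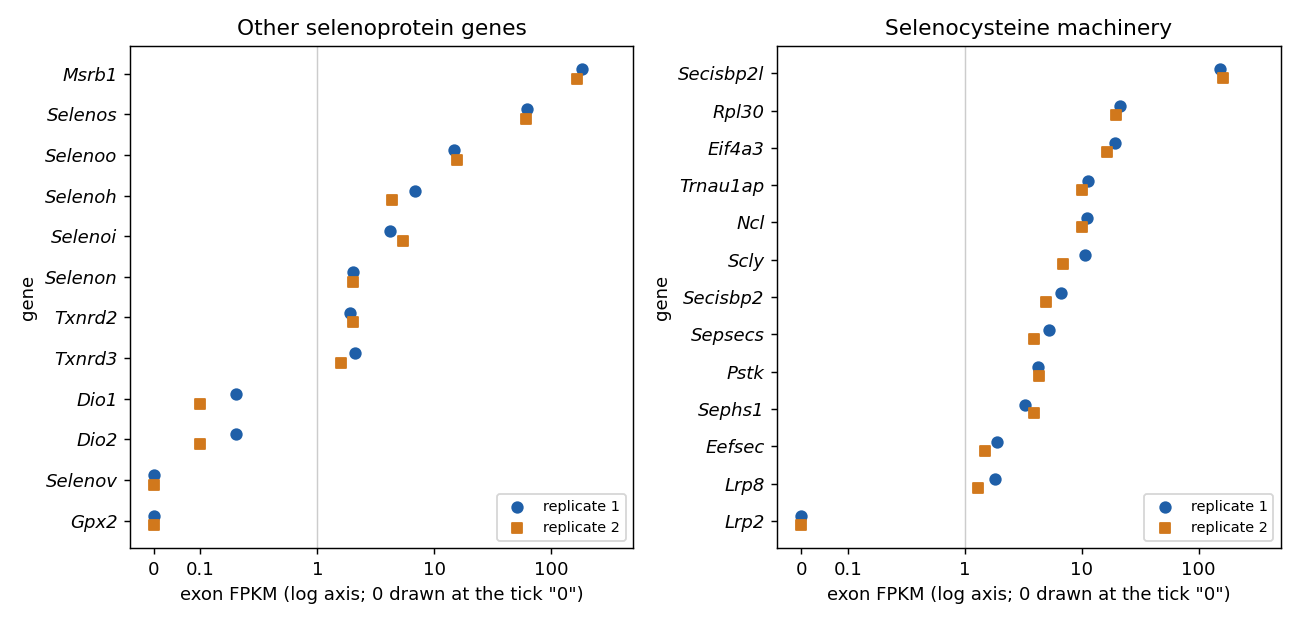
Exon FPKM on a log axis of 12 further selenoprotein genes (left) and 13 genes of selenocysteine synthesis, insertion and uptake (right) in replicate 1 (circles) and replicate 2 (squares), with 0 drawn at the tick "0" and a grey line at 1 FPKM. *Msrb1* and *Secisbp2l* lead the panels at 184.2 and 151.3 in replicate 1, and *Gpx2*, *Selenov* and *Lrp2* are at 0 in both mice.

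Among 20 listed genes of related redox systems that use no selenium, 19 averaged at least 1 exon FPKM, compared with 48% of all genes. *Prdx4*, the peroxiredoxin of the ER, had 231.5 in replicate 1 and 244.8 in replicate 2, above every one of the 22 selenoprotein genes but *Selenop* and *Gpx1*. The thioredoxin inhibitor *Txnip* had 189.9 and 212.2. *Prdx3*, the mitochondrial peroxiredoxin, had 52.1 and 74.2, and catalase (*Cat*) had 34.3 and 50.2. *Gpx1* was above all 20 of these genes in both mice. *Gpx7* and *Gpx8*, ER peroxidases with cysteine in place of selenocysteine, had 0.6 and 1.0, and 6.4 and 9.8.

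The genes most like the leading 3 were sought over 4 values, exon and intron levels on a log2 scale in 2 mice. *Folr1*, *Cel* and *Clu* were nearest to *Selenop*, at Euclidean distances of 0.95, 1.19 and 1.27. *Hbb-bs*, *Spp1* and *Ndufa1* were nearest to *Gpx1*, at 0.69, 1.36 and 2.13. *Sparc*, *Lamp1* and *Tmem59* were nearest to *Selenof*, at 0.48, 0.48 and 0.55. The match to *Gpx1* rests in part on intron values listed at 0 from 218 bp, and *Ndufa1* had 135.1 and 174.6 exon FPKM, well below *Gpx1*. These distances describe levels in 2 libraries and no more.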

How the data were processed

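The authors isolated total RNA from L10 mammary glands, made stranded total RNA libraries (TruSeq) and sequenced them on an Illumina HiSeq. Per the labels and the study's methods, reads were mapped to mm10 with STAR, counted with HTSeq over the collapsed exons and over the introns of each gene, and turned into FPKM with DESeq2. The authors deposited the exon and intron FPKM with 1 decimal, and strand setting and versions are not given in the sources used here. The ChIP-seq samples are not analysed here.

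The members and gene lists were chosen with earlier results of these data known. Named genes are the 10 members, the listed selenoprotein, machinery and redox genes, and the 3 genes nearest to each of the 3 highest members by log2(FPKM + 1) of exons and log2(FPKM + 0.1) of introns. Of the 20550 genes, the 20515 with a usable symbol were kept, leaving out names that were numbers or missing, and 98.2% of them matched a RefSeq model on GRCm38 by symbol. The transcript shown for a gene is the RefSeq NM accession with the lowest number. Ratios between the mice used log2(FPKM + 1) over genes averaging at least 1 exon FPKM, and the GC correction used a lowess fit over 30% of the genes. Copies were sought with blastn 2.17.0 on the assembled chromosomes. The step of 1 fragment was the period that best fitted FPKM times length in exons and introns of at most 3 times that step in bp. The step search and the GC correction were tested on simulated data. Tables were handled in Python 3.11.15 (pandas 2.3.3, numpy 2.4.6), the lowess fit came from statsmodels 0.14.6, intervals and correlations from scipy 1.17.1, and plots from matplotlib 3.10.9.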

Additional observations from a re-analysis of the deposited data

How the results depend on the processing

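Of 249 alternatives for all values, 190 left the value within 1 SD of the mice, within 0.1 on the log2 scale or, for a count, within 1.5-fold. With 2 mice, leaving one out or taking the geometric mean stays within 1 SD by construction. The log2 ratio of a single gene does not depend on the filter, so the filter settings leave it unchanged. The 190 thus include alternatives that could not move the value. No paired analysis was possible because there is only 1 group. Scaling each mouse to an exon FPKM sum of 1000000 turned the median log2 ratio of the 10 genes from 0.13 to -0.86, put 0 of them higher in replicate 2 and 5 more than 2-fold apart, and turned *Selenop* to -0.37, *Selenof* to -0.47, *Selenok* to -0.54, *Selenot* to -0.31 and *Gpx3* to -0.64. The same scaling gave 4193 of all genes more than 2-fold apart, 6 of them higher in replicate 2, compared with 581 and 106 before. The GC correction gave a median of 0.25, 8 genes higher in replicate 2, 0 more than 2-fold apart and 193 of all genes, 81 of them higher in replicate 2, and turned *Selenom* to 0.26, *Gpx1* to 0.23 and *Gpx4* to 0.57. Without the 10 highest genes in the sum, 8 members reached 100 FPKM, since values were multiplied by 5.72 and 5.93 in the 2 mice, and 1001 of all genes were more than 2-fold apart. Centring on the median left 0 members more than 2-fold apart. Restricting to genes averaging at least 10 exon FPKM gave a median of 0.44 and 231 genes, and a pseudocount of 0.1 gave 1102 genes. Leaving out members with copies, chosen after seeing the data, moved the median exon to intron ratio from 59.8 to 106. The depth limits the *Selenom* exons, at 35 and 12 fragments, and the *Gpx3* introns, at 12 and 9.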
